A study of Mus musculus with 2 samples.

Results

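The genes described here make, move, store or burn lipid: enzymes of cholesterol synthesis, the proteins that sense and transport sterols, and the genes of fatty acid synthesis, storage and oxidation. They were taken by name from a list of 56 genes, and 55 had a row of their own in the deposited table of 35798 rows. The remaining gene, Tm7sf2, shares a row with Vps51 and Zfpl1 (61.0 FPKM for the control, 78.6 FPKM for the mutant) and was left out. Of the 55, 53 reached 1 FPKM in at least 1 library. FPKM counts sequenced fragments relative to transcript length and to the size of the library, so levels can be set side by side between genes.

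RNA was sequenced from adult C57BL/6 bone marrow cells sorted as GFP+ and as negative for CD45, CD31 and Ter119. The GFP is driven by nestin regulatory sequence (Nes-gfp) and marks perivascular stromal cells that support haematopoietic stem cells. Control cells came from Nes-gfp littermates, and mutant cells from Nes-gfp;Mx1-cre;JAK2-V617F mice, which carry the activating kinase mutation of myeloproliferative neoplasms. Both genotypes were given pIpC and sampled 6 weeks later. Mx1-cre responds to interferon and is active in blood cells and other interferon-responsive cells. The control label names no Cre, so the effects of Cre and of the mutation cannot be told apart. Each genotype is 1 library made from 3 pooled animals. No value below has a replicate error, no test between genotypes was possible, and every difference is one between 2 pools of cells.

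Animal cells build cholesterol from acetyl-CoA through mevalonate, isoprenoid diphosphates, squalene and lanosterol. When membrane sterol is low, the escort protein SCAP carries the SREBP transcription factors from the endoplasmic reticulum to the Golgi, where they are cleaved and switch on sterol and fatty acid enzymes. INSIG proteins hold SCAP back when sterol is plentiful. Excess cholesterol leaves the cell through ABC transporters to apolipoproteins, and fatty acids are either esterified into lipid droplets or oxidised in mitochondria. Bone marrow stromal cells of this kind can give rise to adipocytes, the main lipid-storing cell of the marrow.

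The 2 libraries had estimated FPKM denominators of about 5420000 fragments (control) and 6300000 fragments (JAK2-V617F). All 8 stromal markers examined were present in both pools and within 2-fold, with a summed level of 1130.4 FPKM (control) and 884 FPKM (JAK2-V617F). Of these, 7 lay below a ratio of 1, with a median log2 ratio of -0.37. Markers of gated-out cells were present as well. The 10 erythroid markers summed to 2802.5 and 1479 FPKM and all lay below a ratio of 1. The 7 leukocyte markers summed to 307 and 424 FPKM and all lay above it. In bulk RNA, fewer cells of a type and less RNA per cell cannot be told apart.

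The lipid genes were compared between the pools beside all protein-coding genes. Higher and lower refer to the JAK2-V617F library relative to the control, and a gene was called when log2((JAK2-V617F FPKM + 1)/(control FPKM + 1)), the log2 ratio used throughout, was at least 1 in size, which is 2-fold on that scale. By this rule 2 of the 53 genes were higher (3.77%), beside 10.0% of the 12456 protein-coding genes at 1 FPKM or more. A further 4 were lower (7.55%), beside 8.67% of protein-coding genes. The higher genes were Nsdhl and Abcg1, and the lower genes were Scap, Mvd, Sc4mol and Fdps. At 5 FPKM or more, 2 of 50 members were higher and 3 lower, beside 6.73% and 7.92% of protein-coding genes. These shares lie near or below the background and are not a result about lipid genes as a set. At a threshold of 1.5-fold, 10 members were higher (18.9%) beside 19.0% of protein-coding genes, and 6 were lower (11.3%) beside 19.2%. The median log2 ratio of the 53 genes was 0.00, with 27 above 0 and 26 below, and the median of all protein-coding genes was -0.04. Across the 53 genes, log2(FPKM + 1) in the 2 libraries correlated with Pearson's r = 0.928, and across protein-coding genes with r = 0.91. Both are descriptions across genes, which are not independent replicates.

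**Figure D1:**
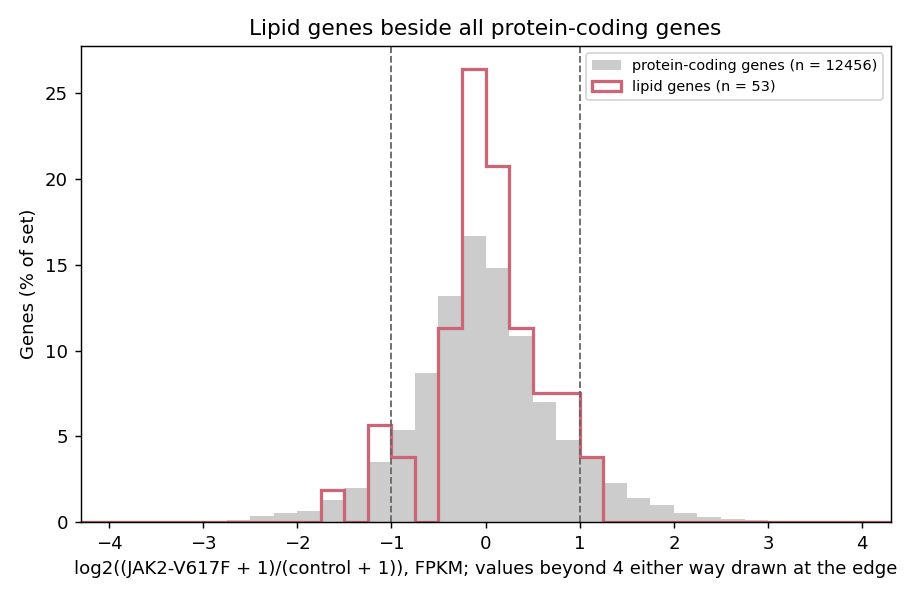
Distribution of log2((JAK2-V617F + 1)/(control + 1)) in FPKM (horizontal axis) as a percentage of each set (vertical axis), for 12456 protein-coding genes (grey bars) and 53 lipid genes (red outline). Dashed lines mark 2-fold. The lipid genes centre on 0, with 47 of 53 inside the dashed lines.

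Levels spanned more than the differences did. Srebf1 (243 FPKM), Acly (235 FPKM) and Apoe (149.6 FPKM) were the highest members in the control library. The same genes led the JAK2-V617F library in another order, with Apoe at 146 FPKM, Acly at 136 FPKM and Srebf1 at 131 FPKM. At the low end, Dgat2 was at 1.16 and 0.911 FPKM, Plin1 was listed at 0 and at 0.122 FPKM, and Cidec was listed at 0 in both. By group, over the same 53 genes, desaturases and elongases had the highest median level in the mutant library (49.8 FPKM, control 42.5 FPKM). The sterol sensors had the highest in the control library (55.96 FPKM, mutant 24.7 FPKM). Among members that reached 1 FPKM, fatty acid uptake and binding genes had the lowest group median in both libraries (7.17 and 8.70 FPKM).

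**Figure D2:**
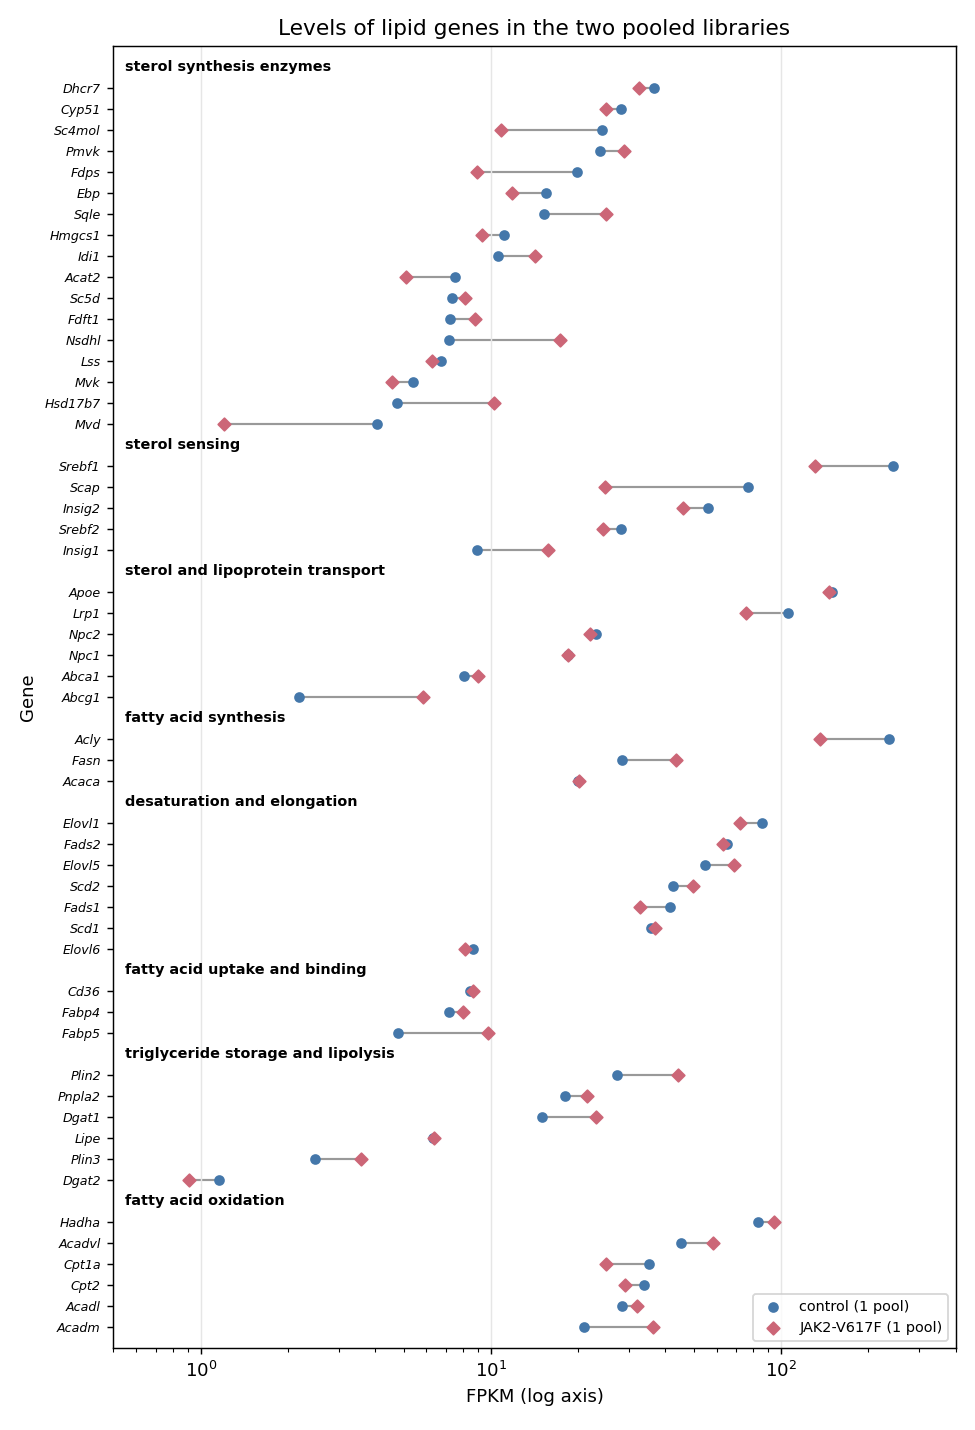
FPKM on a log axis (horizontal) for the 53 lipid genes that reached 1 FPKM (vertical, grouped by role), with the control pool as blue circles and the JAK2-V617F pool as red diamonds. Each point is 1 pooled library with no error bar, and long connecting lines mark Scap, Sc4mol, Fdps, Nsdhl, Hsd17b7, Mvd, Abcg1 and Fabp5.

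Sterol synthesis enzymes did not differ in 1 direction. Of the 17 with a row of their own, 1 was called higher, 3 lower and 13 neither (median log2 ratio -0.16, 7 above 0 and 10 below). That is 5.88% higher and 17.6% lower, beside 10.0% and 8.67% of protein-coding genes. These shares rest on few genes and were not tested. The 17 enzymes summed to 235 FPKM in the control pool and 228 FPKM in the mutant pool. The summed level was thus similar while single steps of the pathway differed in opposite directions. To give the counting error behind a ratio, fragments were estimated from the FPKM steps under the assumption that all came from the longest coding transcript. The 95% intervals of FPKM ratios below rest on that assumption and cover counting error only. The longest transcript gives the most fragments, so shorter transcripts would give wider intervals.

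Among the mevalonate steps, Mvd, which encodes the decarboxylase that makes isopentenyl diphosphate, was at 4.05 FPKM (control) against 1.21 FPKM (JAK2-V617F). Its log2 ratio was -1.20, from about 35 and 12 fragments (FPKM ratio 0.297, interval 0.140 to 0.582). The next enzyme, the isomerase Idi1, went the other way, at 10.6 against 14.2 FPKM (0.39). Fdps, which joins isoprenoid units into farnesyl diphosphate, was at 19.9 against 8.96 FPKM. That is a log2 ratio of -1.07 (FPKM ratio 0.451, interval 0.328 to 0.603, about 131 and 68 fragments). The locus of Mvd (chromosome 8, 122433596 to 122443422, GRCm38) also spans the coding model Gm20388. That of Fdps (chromosome 3, 89093592 to 89101967) spans Gm43738. Neither of these models has a row, so fragments shared with them could not be separated. In all, 10 members have a locus that spans another coding gene. Beyond those named with their values, these include Fdft1 (Ctsb), Cyp51 (Akap9), Npc1 (Rmc1), Acaca (Gm11437) and Acadvl (Dvl2).

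The enzymes around these stayed within 2-fold. Acat2, the cytosolic thiolase of the first step, was at 7.54 against 5.11 FPKM (-0.48). The synthase Hmgcs1 was at 11.1 against 9.33 FPKM (-0.22) and the kinase Mvk at 5.41 against 4.57 FPKM (-0.20). The kinase Pmvk lay on the other side, at 23.9 against 28.7 FPKM (0.26). Squalene synthase, Fdft1, was at 7.22 against 8.84 FPKM (0.26). Squalene epoxidase, Sqle, a rate-controlling enzyme, was at 15.3 against 24.9 FPKM (0.67, FPKM ratio 1.63, interval 1.38 to 1.94). As a result the ratio of Sqle to Fdps was 0.768 in the control pool and 2.78 in the mutant pool.

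The 3 genes that remove the carbon-4 methyl groups of the sterol ring differed in opposite directions. Sc4mol (named Msmo1 in RefSeq), the oxidase that starts each round, was at 24.2 FPKM in control cells and 10.8 FPKM in mutant cells. Its log2 ratio was -1.09, from about 246 and 128 fragments (FPKM ratio 0.448, interval 0.359 to 0.557). Nsdhl, the dehydrogenase that acts after it, was at 7.17 and 17.3 FPKM, a log2 ratio of 1.17 (FPKM ratio 2.42, interval 1.85 to 3.16, about 78 and 218 fragments). Hsd17b7, the reductase that closes the round, was at 4.73 and 10.2 FPKM and just missed the threshold at 0.97, although its FPKM ratio was 2.16 (interval 1.73 to 2.71). Nsdhl was therefore at 0.296 times the level of Sc4mol in the control library and at 1.599 times in the mutant library. The ratio of Hsd17b7 to Sc4mol was 0.196 and 0.944. The loci are chromosome 8, 64718139 to 64733792 (Sc4mol), chromosome X, 72918557 to 72958514 (Nsdhl), and chromosome 1, 169949535 to 169969241 (Hsd17b7), none of which spans another coding gene of GENCODE vM21.

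The calls at the edge depended on scaling. With both libraries rescaled to the same FPKM sum, Fdps was at -0.91 and Sc4mol at -0.93, inside 2-fold, and Hsd17b7 passed it at 1.13. Rescaling to the upper quartile gave -0.97, -0.99 and 1.07. The opposite signs of Sc4mol and Nsdhl held under all 3 rescalings and both other pseudocounts.

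The other steps from squalene epoxide onward stayed within 2-fold. Lss, which closes the sterol rings, was at 6.75 and 6.27 FPKM, and Cyp51, the lanosterol demethylase, at 28.0 and 25.0 FPKM. The last steps were similar, with the isomerase Ebp at 15.6 and 11.8 FPKM (-0.37), the desaturase Sc5d at 7.33 and 8.13 FPKM (0.13), and Dhcr7, the final reductase and the highest enzyme of the group, at 36.6 and 32.3 FPKM (-0.18).

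**Figure D3:**
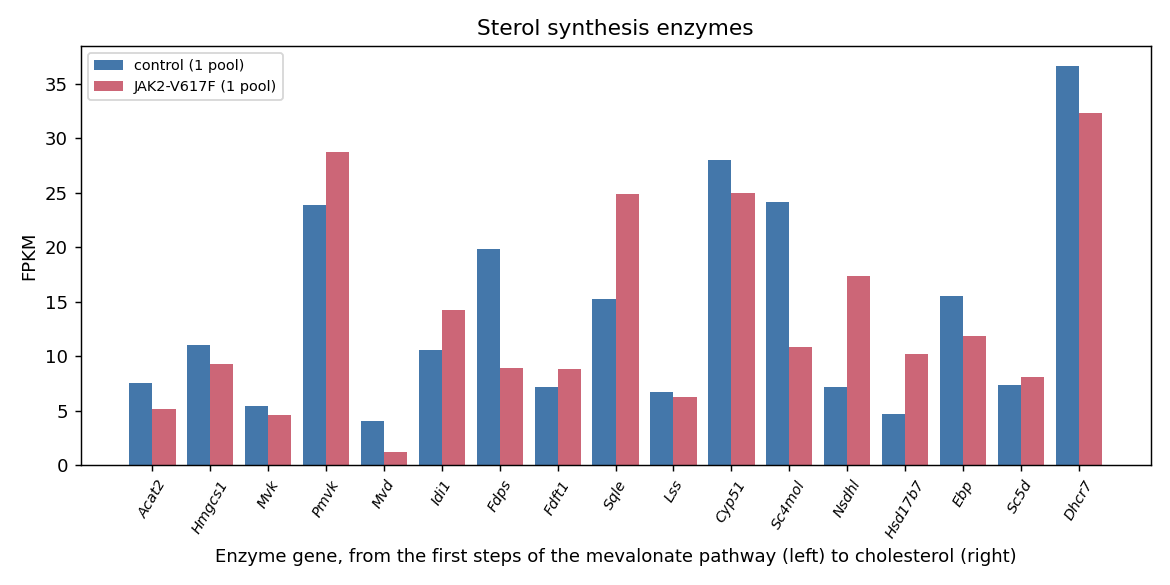
FPKM (vertical axis) of 17 sterol synthesis enzymes in pathway order (horizontal axis), control pool in blue and JAK2-V617F pool in red, with 1 pooled library per bar and no error bars. Mvd, Fdps and Sc4mol are lower and Sqle, Nsdhl and Hsd17b7 higher in the mutant pool, while Dhcr7 is the highest in both.

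Promoter sequence was examined because SREBPs bind sterol response elements together with the CCAAT-binding factor NF-Y. RefSeq windows (GRCm38.p6) of 250 bases before to 50 after the transcription start matched 44 of the 56 genes, in 57 windows. The genes with no window were Fdps, Fdft1, Sqle, Abcg1, Npc1, Scd1, Scd2, Fads1, Fabp4, Fabp5, Dgat1 and Dgat2. The CCAAT box (CCAAT, either strand) was in 14 of 18 windows of sterol synthesis enzymes (77.8%), beside 37.4% of all 32851 windows and 38.2% of those of protein-coding genes. These belong to 14 of 15 genes, with Acat2 the exception. For fatty acid oxidation genes the CCAAT box was in 1 of 6 windows, and over all members in 28 of 57 (49.1%). A sterol response element spelled TCACNCCAC was in 1 window of the members, that of Hmgcs1, and in 1.24% of all windows. The GC box GGGCGG was in 39 of 57 member windows (68.4%, beside 35.7% of all windows and 46.2% of coding ones). In sterol synthesis enzymes it was in 15 of 18 windows (83.3%), a larger share than the CCAAT box. The E-box CACGTG was in 10 of 57 member windows (17.5%, beside 7.15% and 7.84%), and in 3 of 18 of sterol synthesis enzymes (16.7%). Matches describe the letters of these windows and show no binding.

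Those of 4 genes are shown for the 180 bases before the start, 5′ to 3′ on the strand of the gene, with CCAAT boxes on either strand and the sterol response element in capitals. They were picked with the values known: Hmgcs1 for its sterol response element, and Mvd, Sc4mol and Nsdhl because they were called in opposite directions. The windows are chr13:119690171-119690350 (plus strand), chr8:122443423-122443602 (minus), chr8:64733579-64733758 (minus) and chrX:72918341-72918520 (plus).
Hmgcs1: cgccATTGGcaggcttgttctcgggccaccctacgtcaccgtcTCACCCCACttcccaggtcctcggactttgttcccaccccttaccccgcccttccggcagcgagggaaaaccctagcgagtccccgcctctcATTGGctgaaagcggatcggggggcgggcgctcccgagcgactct
Mvd: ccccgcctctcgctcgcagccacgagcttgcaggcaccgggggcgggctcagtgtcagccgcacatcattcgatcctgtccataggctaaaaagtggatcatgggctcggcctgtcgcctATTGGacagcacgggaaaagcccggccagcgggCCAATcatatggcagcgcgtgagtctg
Sc4mol: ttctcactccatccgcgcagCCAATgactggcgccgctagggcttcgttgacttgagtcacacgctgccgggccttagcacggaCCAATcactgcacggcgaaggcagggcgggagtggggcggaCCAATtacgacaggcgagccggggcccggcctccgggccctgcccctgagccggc
Nsdhl: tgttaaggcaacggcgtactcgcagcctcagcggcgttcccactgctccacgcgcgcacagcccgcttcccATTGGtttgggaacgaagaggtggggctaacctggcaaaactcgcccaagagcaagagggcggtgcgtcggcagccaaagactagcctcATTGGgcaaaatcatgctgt
The stretches hold 2, 2, 3 and 2 CCAAT boxes in that order, and no base lies in both motifs.

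Among the 5 sterol sensors, Scap was called lower (20.0% of the group, beside 8.67% of protein-coding genes). Its log2 ratio was the largest in size of all members with the pseudocount of 1, while Mvd was lower by the plain FPKM ratio (0.297, Scap 0.319) and with a pseudocount of 0.1 (-1.67, Scap -1.64). Scap, the escort of the SREBPs, was at 77.3 FPKM in control cells and 24.7 FPKM in mutant cells, a log2 ratio of -1.61. About 1700 and 630 estimated fragments gave an FPKM ratio of 0.319 (interval 0.2906 to 0.3497), the single member whose interval lay wholly below 0.5. Scap was called lower under every alternative run, including a pseudocount of 5, where it was at -1.47 and the other 5 calls were lost. The locus (chromosome 9, 110333288 to 110384946) spans no other coding gene. Scap ranked 7th of 55 members in the control library and 24th in the mutant library.

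Its partners differed less. Srebf1, which encodes SREBP-1 and favours fatty acid genes, was at 243 and 131 FPKM (-0.88, FPKM ratio 0.541, interval 0.519 to 0.565). The Srebf1 locus (chromosome 11, 60105013 to 60222581) also spans Rai1, which has its own row. Srebf2, which encodes the main regulator of cholesterol genes, was at 28.0 and 24.4 FPKM (-0.19). Insig1, an SREBP target as well as a brake on SCAP, was at 8.98 and 15.8 FPKM (0.75, FPKM ratio 1.76, interval 1.41 to 2.20). Insig2, its paralogue, was at 55.96 and 45.9 FPKM (-0.28).

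The balance of these genes therefore differed between the pools. Scap stood at 8.60 times Insig1 in the control library and 1.56 times in the mutant library, and at 1.38 and 0.537 times Insig2. Insig1 made up 13.8% and 25.6% of summed Insig transcripts, and Srebf1 89.7% and 84.3% of summed Srebf transcripts. Erythroid markers and 7 of 8 stromal markers were also at lower levels in the mutant pool, by the sums given above, and their part in the Scap and Srebf1 values was not tested.

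Of 6 sterol transport genes, Abcg1 was called higher (16.7% of the group, beside 10.0% of protein-coding genes). The other 5 lay within 2-fold. Abcg1, an exporter of cholesterol to high-density lipoprotein, was at 2.19 FPKM (control) and 5.84 FPKM (JAK2-V617F), a log2 ratio of 1.10. With the longest coding transcript the estimate was 67 and 208 fragments (FPKM ratio 2.67, interval 2.02 to 3.57), but with the shortest it was 6 and 17 and the interval, 0.917 to 7.55, held 1. Its locus is chromosome 17, 31057698 to 31115777, with no other coding gene.

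Abca1, which loads apolipoprotein A1 and shares control by liver X receptors with Abcg1, was at 8.06 and 9.02 FPKM (0.15). Apoe, the apolipoprotein secreted by macrophages and stromal cells, was at 149.6 and 146 FPKM (-0.03). Lrp1, a receptor that takes up apolipoprotein E particles, was at 106 and 75.9 FPKM (-0.48, FPKM ratio 0.716, interval 0.693 to 0.739). The lysosomal cholesterol exporters were level, with Npc1 at 18.5 FPKM in both and Npc2 at 23.1 and 21.9 FPKM.

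Abcg1 is abundant in macrophages, and some macrophage markers were higher in the same pool. Of 10 macrophage markers, 5 reached 1 FPKM in at least 1 library, their sum going from 6.73 to 31.6 FPKM. Each was at least 2-fold higher in the mutant pool. Cd68 (3.14 and 13.2 FPKM) and Csf1r (2.49 and 7.41 FPKM) reached 1 FPKM in both libraries. Cd14, C1qb and C1qc reached it only in the mutant library, so the filter fixed their direction. Below 1 FPKM in both, Mrc1 went the other way (0.401 and 0.0631 FPKM) and Emr1 was at 0.114 and 0.258 FPKM. C1qa, Marco and Vsig4 were listed at 0 in both libraries. The part of these cells in the Abcg1 value was not tested.

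In fatty acid synthesis no gene reached 2-fold, and the genes of successive steps differed in different directions. Acly, which makes cytosolic acetyl-CoA from citrate for both sterol and fatty acid synthesis, was at 235 and 136 FPKM (-0.79, FPKM ratio 0.578, interval 0.554 to 0.603). Acaca, which makes malonyl-CoA, was at 20.0 and 20.1 FPKM (0.01). Fasn, the fatty acid synthase, was at 28.3 and 43.4 FPKM (0.60, FPKM ratio 1.54, interval 1.44 to 1.64).

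All 7 desaturases and elongases lay within 2-fold, and their log2 ratios covered the narrow span of -0.33 to 0.32. Scd1 and Scd2, which place the first double bond into saturated chains, were at 35.7 and 36.9 FPKM and at 42.5 and 49.8 FPKM. Scd1 made up 45.7% of the Scd sum in the control pool and 42.5% in the mutant pool. Fads1 and Fads2, which desaturate polyunsaturated chains, were at 41.3 and 32.7 FPKM (-0.33) and at 65.3 and 63.3 FPKM (-0.04). Elovl1, an elongase of very long saturated chains, was the highest of the group in the control library, at 85.8 and 72.0 FPKM (-0.25). Its locus also spans Cdc20. Elovl5, an elongase of polyunsaturated chains, was at 54.8 and 68.7 FPKM (0.32), and Elovl6, which extends the product of fatty acid synthase, at 8.66 and 8.18 FPKM (-0.07).

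**Figure D4:**
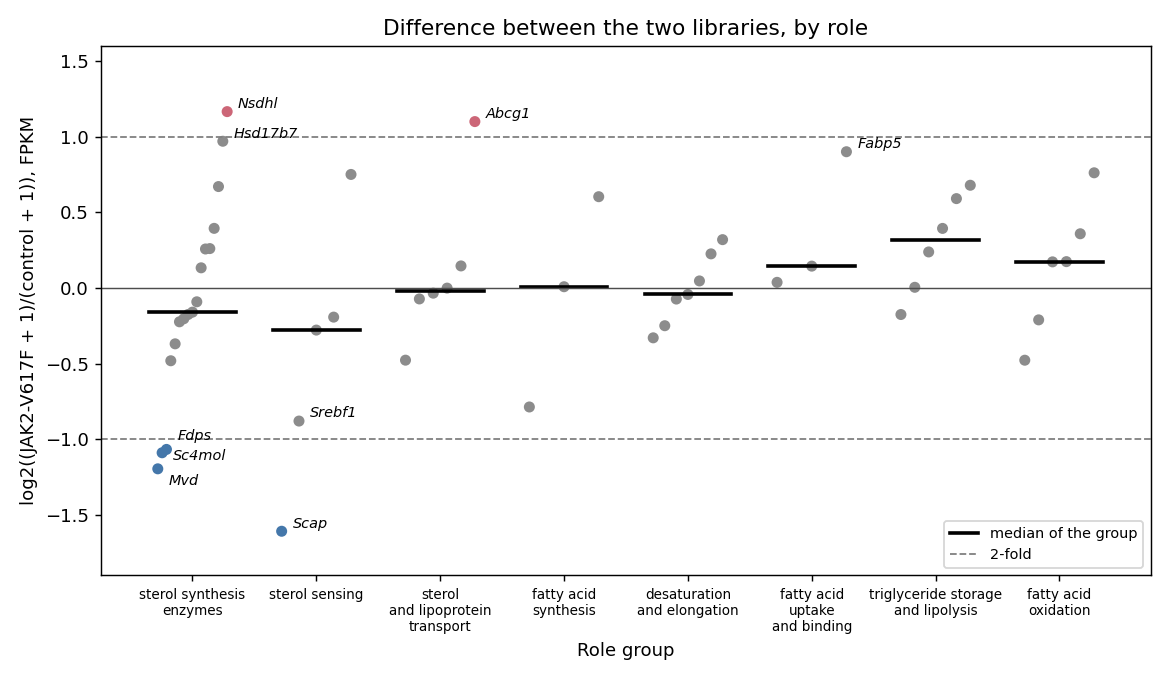
Log2((JAK2-V617F + 1)/(control + 1)) in FPKM (vertical axis) for each of the 53 genes by role group (horizontal axis), with the group median as a black bar and 2-fold as dashed lines. Red points are called higher (Nsdhl, Abcg1), blue points lower (Scap, Mvd, Sc4mol, Fdps), and the group medians run from -0.28 (sterol sensing) to 0.32 (triglyceride storage and lipolysis).

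Uptake and binding genes were low in both pools. Fabp5, a fatty acid chaperone of macrophages, skin and other tissues, was at 4.77 and 9.78 FPKM. Its log2 ratio was 0.90, from about 21 and 50 fragments (FPKM ratio 2.05, interval 1.21 to 3.59), and reached 1.06 with both libraries rescaled to the same sum. Fabp4, the chaperone of adipocytes, endothelium and macrophages, was at 7.17 and 8.03 FPKM (0.14, about 28 and 37 fragments). Fabp5 thus made up 39.96% of the pair in the control and 54.9% in the mutant library. Cd36, a fatty acid translocase also found on platelets, macrophages and endothelium, was at 8.45 and 8.70 FPKM (0.04). Over the same pools megakaryocyte markers summed to 23.0 and 69.1 FPKM (7 of 8 with a row), with Pf4 at 24.1 FPKM in the mutant library and listed at 0 for control cells. Of the 7, 5 lay above a ratio of 1 and 2 below, and Pf4 reached 1 FPKM only in the mutant library. Endothelial markers summed to 33.8 and 44.6 FPKM (9 of 10 at 1 FPKM or more). Of the 9, 6 lay above a ratio of 1 and 3 below (Kdr, Tek and Cdh5). The 3 called higher (33.3%, beside 10.0% of protein-coding genes) were Emcn, Gpihbp1 and Stab2. These reached 1 FPKM only in the mutant library, so the filter fixed their direction. What these cells contribute to Cd36, Fabp4 and Fabp5 was not tested.

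Lipid droplet genes covered a wide range of levels. The droplet coats of mature adipocytes were at or near 0: Cidec, which fuses droplets, was listed at 0 in both pools, and Plin1 reached 0.122 FPKM in the mutant pool and 0 in the other. The other 6 genes of storage and lipolysis, which are more widely expressed, were detected in both pools, Dgat2 only near 1 FPKM, and none reached 2-fold. Their median log2 ratio was 0.32, and 5 of 6 lay above 0, beside 47.5% of protein-coding genes. Plin2, the coat of droplets in non-adipose cells, was at 27.2 and 44.1 FPKM (0.68, FPKM ratio 1.62, interval 1.39 to 1.90). Dgat1, which adds the last fatty acid to triglyceride, was at 14.98 and 23.1 FPKM (0.59, FPKM ratio 1.54, interval 1.25 to 1.90). Plin3 was at 2.49 and 3.58 FPKM (0.39). Dgat2, the other enzyme of the last step, was at 1.16 and 0.911 FPKM, from about 13 and 12 fragments, and a difference was not detectable at this depth (interval 0.331 to 1.89).

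The lipases that empty droplets stayed within 2-fold. Pnpla2, the first lipase of triglyceride breakdown, was at 18.0 and 21.4 FPKM (0.24, FPKM ratio 1.19, interval 1.005 to 1.41). Lipe, hormone-sensitive lipase, was level at 6.33 and 6.35 FPKM. Adipocyte markers were sparse in both pools. Of 10, 4 reached 1 FPKM, with a summed level of 144 and 86.7 FPKM, and Adig, Cfd and Pck1 were listed at 0 in both. Adipoq was at 31.4 and 38.5 FPKM, while Car3 (90.9 and 39.7 FPKM), Slc36a2 (19.5 and 8.54 FPKM) and Lep (1.71 and 0.0528 FPKM) were at least 2-fold lower. Adipoq is also made by stromal cells of the marrow that have not filled with lipid.

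Fatty acid oxidation genes had group medians of 34.4 and 34.05 FPKM, and none was called. Hadha, a subunit of the mitochondrial trifunctional protein, was the highest, at 83.6 and 94.4 FPKM (0.17). Its locus spans 2 other coding genes, Garem2 and 3110082J24Rik. Acadm, which dehydrogenates medium chains, differed most, at 20.9 and 36.1 FPKM (0.76, FPKM ratio 1.73, interval 1.46 to 2.04). Acadvl (very long chains) was at 45.4 and 58.5 FPKM (0.36) and Acadl (long chains) at 28.3 and 32.0 FPKM (0.17). The carnitine steps lay on the other side: Cpt1a, the entry point of fatty acids into mitochondria, was at 35.1 and 24.9 FPKM (-0.48), and Cpt2, its inner-membrane partner, at 33.7 and 28.9 FPKM (-0.21). Oxidation enzymes outside the list did not share 1 direction: Hadhb, the partner subunit of Hadha, was at 43.97 and 26.1 FPKM (-0.73), and Echs1, the short-chain hydratase, at 24.5 and 12.2 FPKM (-0.95). Both were named after their values were seen.

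A further list of 50 genes of the same pathways was compared in the same way. Of 43 that reached 1 FPKM, 2 were called higher and 2 lower (4.65% each), beside the 10.0% and 8.67% of protein-coding genes, and the median log2 ratio was -0.02. These shares lie below the background and are likewise not a result about the list as a set. Pparg, the adipogenic nuclear receptor, was higher (1.33 and 4.78 FPKM, 1.31). So was Gpihbp1, the endothelial anchor of lipoprotein lipase, at 1.77 FPKM in mutant cells and listed at 0 for control cells. Acads, which oxidises short chains, was lower (14.0 and 4.18 FPKM, -1.54), in contrast to its medium-chain relative Acadm. Fabp3, the heart-type chaperone, was called lower, with 1.51 FPKM for control cells and a listed 0 for mutant cells. Gpihbp1 and Fabp3 each reached 1 FPKM in 1 library only, so the filter fixed their direction.

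Counting error alone was small for many members if all fragments came from the longest coding transcript, which gives the narrowest intervals. With the shortest, the interval was 1.15 to 2.10 for Fasn and 1.41 to 3.31 for Hsd17b7. For Scap, Fdps and Sc4mol the shortest transcript was too short for an estimate. With the longest coding transcript, the 95% interval of the FPKM ratio lay above 1 for 16 of 53 genes, below 1 for 16, and held 1 for 21. Only Abcg1 lay wholly above 2 and only Scap wholly below 0.5. These intervals leave out the variation between animals, sorts and amplifications, which 1 pool per genotype cannot show.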

How the data were processed

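Per the labels' protocols, a few nanograms of RNA were amplified to cDNA, sonicated and sequenced on a Genome Analyzer IIx. The labels mention no molecular identifiers. The authors deposited 1 FPKM value per gene and library. The build was GRCm38 and the tools included Bowtie2 2.0.6, TopHat2 2.0.7, Cufflinks and cutadapt 1.2.1, per the submitters' processing notes. Not given in the sources used here: settings, annotation, strand use and scaling between libraries.

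The members, gene lists and tests were chosen with earlier results of these data known. Rows naming several genes (401) were left out. Gene types came from RefSeq (GRCm38.p6), by which 19965 rows were single protein-coding genes. The rule named members past 2-fold or within 0.15 (log2) of it, members listed at 0, and the highest and the 2 most different of each role group. The other members were named too, for completeness. Of the other pathway genes, those past 2-fold were named, Pparg among them, and some genes that the rule also named are not reported here. The shown promoters fall outside the rule, under which none qualified.

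Fragments were estimated from FPKM steps of 3827 genes with 1 GENCODE vM21 transcript. With an offset of 170 nt, picked as the sharpest, 1 fragment was worth 0.184 (control) and 0.159 (JAK2-V617F) FPKM at 1 kb. Below 3.5 fragments, 83.0% and 82.3% of values came within 0.2 of whole fragments (40% if spread evenly). No member had a single transcript, so the planned counting intervals could not be made. Those given (exact Clopper-Pearson, 95%, Python 3.11.15, scipy 1.17.1) use the longest or shortest coding transcript and were added after seeing the data. The step search and the motif search were tested on simulated data. Alternatives varied pseudocount, filter, scaling, fold threshold and shared rows.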

Additional observations from a re-analysis of the deposited data

How the results depend on the processing

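Of the 6 called genes, all kept their call with a pseudocount of 0.1, with no filter, with shared rows included and after rescaling by the median ratio. No call changed sign under any setting. The count of higher genes was 2 as deposited, 4 with a pseudocount of 0.1 (adding Hsd17b7 and Fabp5), 4 after rescaling to the same sum, 0 with a pseudocount of 5 and 10 at 1.5-fold. The count of lower genes was 4 as deposited, 1 with a pseudocount of 5 (Scap alone), and 2 after rescaling to the same sum or the upper quartile, which put Fdps and Sc4mol inside 2-fold. It was also 2 without loci that span another coding gene, an alternative chosen after seeing the data that drops Mvd and Fdps by construction. At 5 FPKM or more Mvd was no longer measured.

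Rescaling adds a shift of up to 0.18 (same sum), 0.07 (median ratio) or 0.10 (upper quartile) to log2 ratios. The shift is smaller for genes at low level because of the pseudocount. Under the same sum, Mvd went from -1.20 to -1.10. After rescaling to the same sum, the median of all members was 0.17. Group medians became 0.011 for sterol synthesis, -0.10 for sterol sensing, 0.15 for transport, 0.18 for fatty acid synthesis, 0.13 for desaturation and elongation, 0.30 for uptake, 0.47 for storage and 0.35 for oxidation. Signs turned for sterol synthesis, transport and desaturation. The upper quartile gave -0.0593 for sterol synthesis, -0.18 for sensing, 0.0839 for transport, 0.06 for desaturation and 0.28 for oxidation. With a pseudocount of 5 the storage median was 0.20. No replicate could be left out, since each genotype is 1 library.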
